A study of Sus scrofa with 12 samples.

Results

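The genes described here are the sarcomeric myosin heavy chains of striated muscle, chosen by name as MYH1, MYH2, MYH3, MYH4, MYH6, MYH7, MYH7B and MYH8. Of the 8 genes, 4 had a row of that name among the 31908 genes of the expression table: MYH3, MYH8, MYH7 and MYH7B. The adult fast chains MYH1, MYH2 and MYH4 and the cardiac chain MYH6 had no row of that name and were not analysed here, and 14420 rows of the table carry no symbol. MYH7 had a group mean below 1 FPKM in all 4 groups. FPKM divides the reads of a gene by its length and by the size of the library. Levels can be compared between genes within a library, while comparisons between libraries depend on the scaling, and other scalings were tried.

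RNA-seq was performed on porcine (Sus scrofa) muscle satellite cells, the stem cells of skeletal muscle, whose dividing myoblasts fuse into multinucleated myotubes on differentiation. The 4 groups of 3 libraries were the CBP arm at 60h of differentiation, control cells at 60h of differentiation, the CBP arm at 0h (proliferation), and control cells at 0h. Control cells are called WT in the labels and NC in the column names. The CBP arm was read as exposure to SGC-CBP30, an inhibitor of the CBP and p300 bromodomains (the parts of these histone acetyltransferases that bind acetylated lysine), with 48 h labelled for proliferation and 60 h for differentiation, at a dose labelled 5 uM per ml. That treatment text is attached to the control samples too, and the group names are filed as genotypes, so the labels do not settle whether CBP is a compound or a genetic change. The labels name the cell line C3H although the species is pig, and they do not say whether replicates were separate cultures. The p-values below therefore measure the spread between these libraries, which may be technical. By its title, the study asked about CBP and the inhibition of differentiation in these cells.

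Myosin heavy chains form the thick filaments of the sarcomere, and their motor heads split ATP and pull on actin. Mammals switch between heavy chain genes as muscle matures: MYH3, the embryonic chain, and MYH8, the perinatal chain, are used in developing and regenerating muscle, and give way to the slow chain MYH7 and the fast chains MYH2, MYH1 and MYH4 in adult fibres. MYH6 and MYH7 are also the chains of the heart, and MYH7B is an old member of the family found in a few slow-tonic fibres and, at the transcript level, in heart and slow muscle. Cultured myotubes are known mainly for the developmental chains.

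The library totals behind the FPKM values were 16095335 to 19155240 reads, recovered from the steps of those values. Reads summed over genes made up 99.99% of each total, so reads not assigned to a gene are not included. In all, 11636 genes reached 1 FPKM in at least 3 libraries and were tested. The labelled cell type was checked by its markers, and all 9 satellite cell and myoblast markers with a row were tested. In CBP cells 5 of them were called higher and 4 lower at 60h, and 1 higher and 8 lower at 0h. Of all genes tested, 44.7% were called higher and 27% lower at 60h, and 44.2% higher and 18.1% lower at 0h. Under median-of-ratios scaling these shares were 33.1% and 35.9% at 60h, and 25.7% and 26.5% at 0h. The 4 markers called lower at 60h were DES, CAV1, MYOD1 and NCAM1, while PAX7 was among the 5 called higher. PAX7, the satellite cell factor, averaged 12.3 FPKM in CBP cells at 60h and 7.57 FPKM in control cells at 60h, against 8.88 FPKM in CBP cells and 14.4 FPKM in control cells at 0h. MYOG, the factor of committed myocytes, averaged 448 FPKM in CBP cells and 589 FPKM in control cells at 60h, against 28.5 FPKM in CBP cells and 343 FPKM in control cells at 0h, so the control cells carried differentiation transcripts already at the stage labelled proliferation. In bulk RNA, fewer cells of a type and less RNA per cell cannot be told apart.

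The embryonic chain MYH3 (ENSSSCG00000018007) was the most abundant of the 4 genes in every library. At 60h it stood at 384, 353 and 407 FPKM in the 3 CBP libraries, against 707, 696 and 688 FPKM in the 3 control libraries. At 0h it stood at 10.5, 11.5 and 12.6 FPKM in CBP libraries, against 152, 172 and 166 FPKM in control libraries. No 2 groups overlapped, and the order of levels was control at 60h, CBP at 60h, control at 0h and CBP at 0h. Among all genes tested, 62.3% to 72.7% were called in the comparisons between 2 groups. The share of genes with no overlap between any 2 groups was not computed, so separate groups are not taken to set a gene apart. Among all genes of a library, MYH3 ranked between 103 and 123 by FPKM in CBP cells at 60h and between 51 and 55 in control cells at 60h, and between 4360 and 4980 in CBP cells at 0h and between 254 and 295 in control cells at 0h.

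The perinatal chain MYH8 (ENSSSCG00000018005) had a different order. At 60h it stood at 119, 109 and 126 FPKM in CBP libraries, against 51.0, 50.4 and 48.2 FPKM in control libraries. At 0h it stood at 2.69, 3.26 and 2.81 FPKM in CBP libraries, against 13.9, 15.3 and 14.6 FPKM in control libraries. No 2 groups overlapped here either, and MYH8 was highest in CBP cells at 60h, then in control cells at 60h, control cells at 0h and CBP cells at 0h. By FPKM it ranked between 323 and 397 in CBP cells at 60h and between 967 and 1029 in control cells at 60h.

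The row named MYH7 (ENSSSCG00000002029), the slow and beta-cardiac chain, stayed low. It held 0.396, 0.279 and 0.331 FPKM in CBP libraries and 0.776, 0.699 and 0.669 FPKM in control libraries at 60h. At 0h it held 0.0330, 0.0281 and 0.0269 FPKM in CBP libraries, from 7, 6 and 5 reads, and 0.0858, 0.0942 and 0.113 FPKM in control libraries, from 19, 20 and 25 reads. The 4 groups did not overlap and had the order seen for MYH3, at far lower levels. The identity of this row is uncertain, because the reference name table gives the same identifier as MYH6, the alpha-cardiac chain. Its recovered length of 11567 bases was 1.79 times that of the MYH3 row, and the MYH7B row was 1.86 times as long as the MYH3 row. In the RefSeq annotation of Sscrofa11.1, the gene named MYH7 lies on chromosome 7, from 75650841 to 75672908, and holds MIR208B. MYH7 was below the filter and was not in the test over 11636 genes.

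MYH7B (ENSSSCG00000007288; chromosome 17, 38362158 to 38385680 in the RefSeq annotation of Sscrofa11.1) lay near 1 FPKM in every group. It held 1.11, 1.00 and 1.06 FPKM in CBP libraries and 0.702, 0.839 and 0.847 FPKM in control libraries at 60h. At 0h it held 0.613, 0.604 and 0.873 FPKM in CBP libraries and 0.703, 0.602 and 0.598 FPKM in control libraries. The CBP libraries at 60h were above all others, and the other 3 groups overlapped with their neighbours in the order of levels. MYH7B passed the filter through the CBP libraries at 60h alone, so a difference in that direction was built into its being tested. Its last 31 bases overlap TRPC4AP in that annotation, and without a stated strand setting reads of overlapping genes cannot be told apart.

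**Figure D1:**
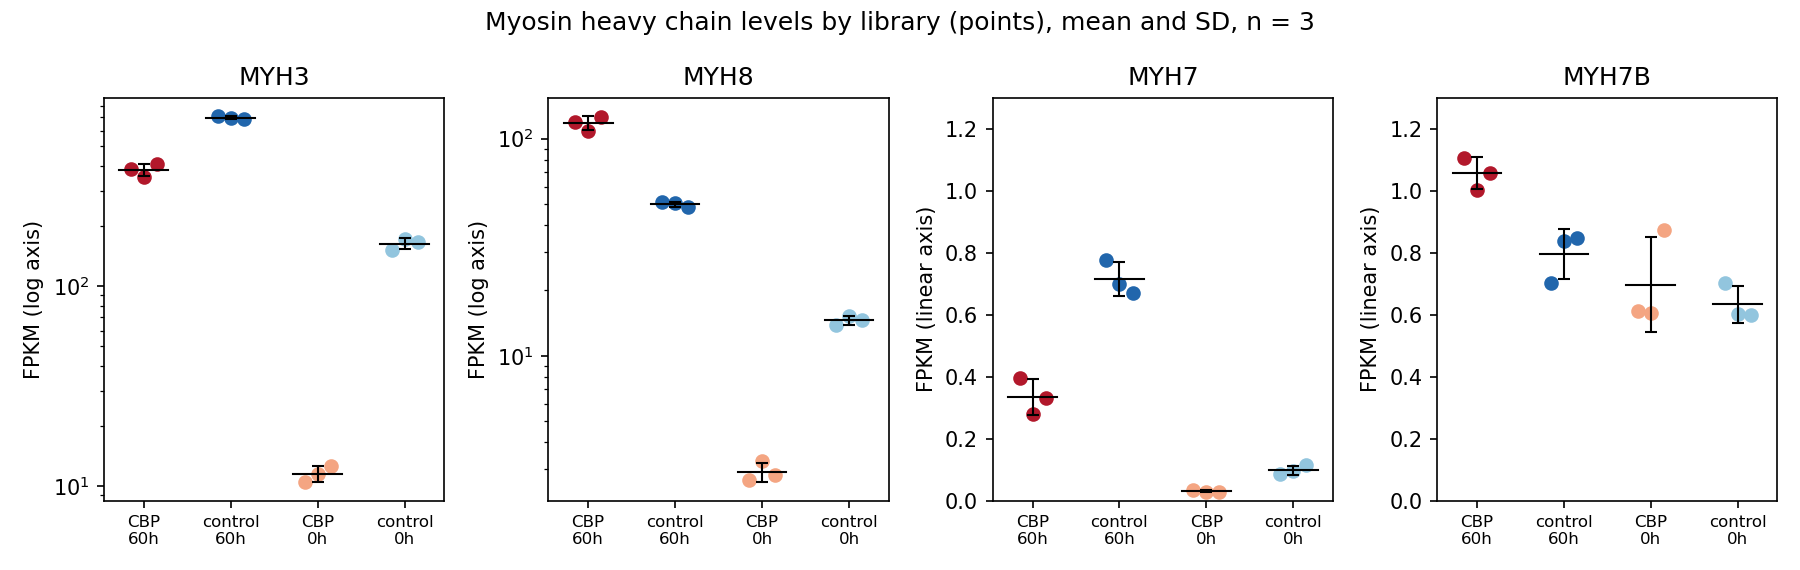
FPKM of MYH3, MYH8, MYH7 and MYH7B by library; points are libraries and lines are the mean and SD of 3 libraries, with log axes for MYH3 and MYH8 and linear axes for MYH7 and MYH7B. MYH3 is lower in CBP than in control cells at both stages, while MYH8 is higher in CBP cells at 60h (118 against 49.9 FPKM) and lower at 0h (2.92 against 14.6 FPKM).

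MYH4, MYH1 and MYH2, the fast chains, follow one another on chromosome 12 in the RefSeq annotation of Sscrofa11.1: MYH4 from 55190545 to 55216294, MYH1 from 55225581 to 55251495 and MYH2 from 55252974 to 55278820. The gap between MYH4 and MYH1 is 9286 bases and that between MYH1 and MYH2 is 1478 bases. The sarcomeric chains are alike in coding sequence, and how reads matching several of them were counted is not given in the sources used here. The split of reads among MYH3, MYH8 and the fast chains is uncertain to that extent.

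After 60h of differentiation, CBP cells held less of the embryonic chain and more of the perinatal chain than control cells. MYH3 averaged 381 ± 26.8 FPKM in CBP cells and 697 ± 9.81 FPKM in control cells (SD, n = 3 each), a level 1.83-fold lower. MYH8 averaged 118 ± 8.76 FPKM in CBP cells and 49.9 ± 1.45 FPKM in control cells (SD, n = 3 each), a level 2.36-fold higher. On the log2(FPKM + 1) scale, MYH3 changed by -0.87 (SE 0.065) with limma's adjusted p = 1.66e-07, and MYH8 by 1.22 (SE 0.062) with limma's adjusted p = 4.95e-09. MYH7B averaged 1.06 ± 0.0519 FPKM in CBP cells and 0.796 ± 0.0815 FPKM in control cells, and its log2 change of 0.20 (SE 0.077) had limma's adjusted p = 0.0371. MYH3 and MYH8 were thus called in opposite directions, beside 71.6% of all genes tested, with 44.7% higher and 27% lower (33.1% and 35.9% under median-of-ratios scaling). MYH7B is left out of this count because the filter favoured a higher level in CBP cells at 60h. Its call was lost when any 1 of the 3 control libraries at 60h was left out (limma adjusted p = 0.132, 0.0555 and 0.0523 without replicates 1, 2 and 3), and MYH7B was no longer tested when a CBP library at 60h was left out.

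For MYH7 at 60h, the mean was 0.335 ± 0.0586 FPKM in CBP cells and 0.715 ± 0.0555 FPKM in control cells (SD, n = 3 each), from 219 and 454 reads in all. Fitted without the filter, its log2(FPKM + 1) change was -0.36 with limma's adjusted p = 8.13e-06 over 22521 genes. With limma-voom on the recovered reads, an alternative added after the data were seen, its log2 change was -1.10 with an adjusted p = 3.29e-07. Both had the direction of MYH3.

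In proliferation, both developmental chains were lower in CBP cells. MYH3 averaged 11.5 ± 1.05 FPKM in CBP cells and 163 ± 10.6 FPKM in control cells (SD, n = 3 each), 14.2-fold lower. MYH8 averaged 2.92 ± 0.302 FPKM in CBP cells and 14.6 ± 0.672 FPKM in control cells (SD, n = 3 each), 5.00-fold lower. The log2 change was -3.71 for MYH3 (limma adjusted p = 1.44e-12) and -2.00 for MYH8 (limma adjusted p = 1.88e-10), while MYH7B changed by 0.05 with limma's adjusted p = 0.584. MYH3 and MYH8 were called, beside 62.3% of all genes, with 44.2% higher and 18.1% lower (25.7% and 26.5% under median-of-ratios scaling). MYH7 averaged 0.0293 FPKM in CBP cells and 0.0978 FPKM in control cells at 0h. Its unfiltered log2(FPKM + 1) change was -0.09 (limma adjusted p = 0.0584), and with limma-voom on reads it was -1.65 (adjusted p = 0.00115). The call of MYH7 at 0h thus differed between these fits, which differ in scale, weighting and genes tested.

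The 2 stages differed in the effect for both developmental chains. The change in CBP cells at 60h minus that at 0h was 2.84 for MYH3 (SE 0.0925, limma adjusted p = 5.75e-10) and 3.22 for MYH8 (SE 0.0877, limma adjusted p = 1.49e-10), on the log2(FPKM + 1) scale. For MYH3 that is a smaller deficit at 60h than at 0h, and for MYH8 a change of sign. MYH7B had a difference of 0.15 with limma's adjusted p = 0.288. MYH3 and MYH8 were called, beside 50.9% of all genes, with 24.3% positive and 26.7% negative. For MYH7 the difference was -0.27 without the filter and 0.55 with limma-voom on reads, so no direction is given.

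Of all 11636 genes tested, 366, or 3.15%, were called lower in CBP cells at 0h and higher in CBP cells at 60h, as MYH8 was. The lists of sarcomeric heavy chains, light chains, thick filament proteins and fast and slow isoforms held 39 tested genes, and 5 of them had this pattern: MYH8, MYL4, ATP2A1, OBSL1 and TNNT2. ATP2A1 is the fast calcium pump of the sarcoplasmic reticulum, OBSL1 a cytoskeletal adaptor and TNNT2 the cardiac and embryonic troponin T. TNNT2 averaged 1458 ± 71.3 FPKM in CBP cells and 1231 ± 31.3 FPKM in control cells at 60h (SD, n = 3 each), and its call at 60h was lost under median-of-ratios scaling (limma adjusted p = 0.138). Among the 366 genes, 5 passed 1 log2 unit at both stages: MYH8, FGFR4, CDKN1C, MIR1-2 and ssc-mir-145. MIR1-2 and ssc-mir-145 are microRNA rows, and their read numbers were not examined. A short row can pass the filter on few reads: in the 80-base row of MIR208B, 1 read gave 0.661 FPKM in CBP replicate 2 at 60h. The genes of this pattern other than MYH8 and MYL4 were singled out after their values were seen.

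**Figure D2:**
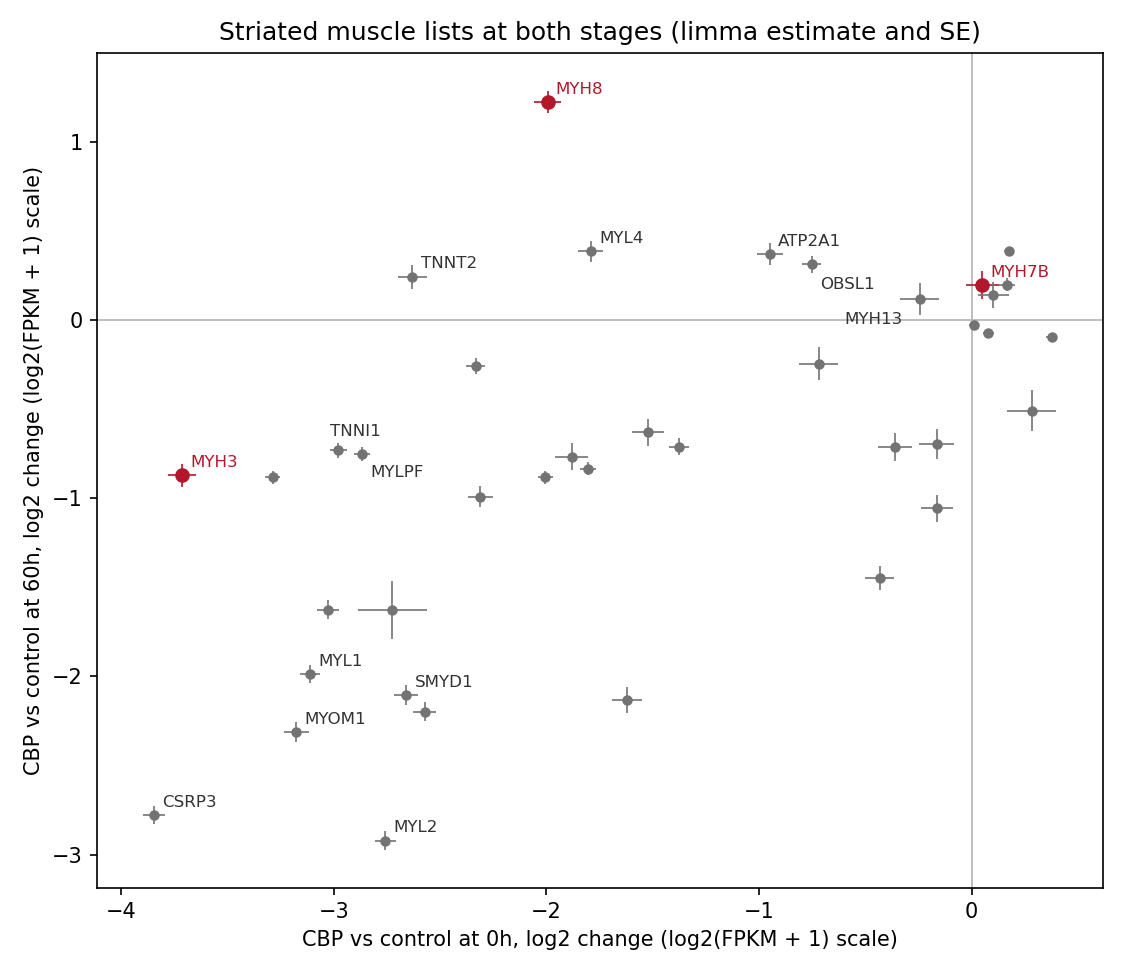
Log2 change of CBP against control cells at 60h (vertical axis) and at 0h (horizontal axis), with the SE of limma, for the 39 tested genes of the sarcomeric lists; MYH3, MYH8 and MYH7B are in red. MYH8 stands in the upper left (1.22 at 60h, -2.00 at 0h) and MYH3 in the lower left (-0.87 at 60h, -3.71 at 0h).

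Over differentiation, both developmental chains rose in both arms. In control cells, MYH3 was 4.27-fold higher at 60h than at 0h, a log2 change of 2.09 (limma adjusted p = 1.02e-10). MYH8 was 3.41-fold higher in control cells at 60h, a log2 change of 1.71 (limma adjusted p = 3.39e-10). MYH7B had a log2 change of 0.14 (limma adjusted p = 0.14), which passed the threshold only under quantile scaling (adjusted p = 0.039) and with limma-voom on reads (adjusted p = 0.0366). MYH3 and MYH8 were called in control cells, beside 66.8% of all genes, with 28.8% higher and 38% lower (35.1% and 30.8% after rescaling to TPM). MYH7 held 454 reads at 60h and 64 at 0h in control cells, 7.31-fold higher in FPKM.

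In CBP cells the differences between stages were larger in fold. MYH3 was 33.1-fold higher at 60h than at 0h, a log2 change of 4.93 (limma adjusted p = 4.05e-14). MYH8 was 40.4-fold higher, a log2 change of 4.92 (limma adjusted p = 2.53e-14). MYH7B was 1.52-fold higher, a log2 change of 0.28 (limma adjusted p = 0.00573). MYH3 and MYH8 were called, beside 72.7% of all genes, with 31.3% higher and 41.5% lower (39.2% and 32.6% after rescaling to TPM). MYH7B entered the test only through the CBP libraries at 60h, so its call was favoured by the filter and is not counted. MYH7 held 219 reads at 60h and 18 at 0h in CBP cells, 11.4-fold higher in FPKM. The control and CBP stage comparisons share no library, and the test of their difference is the same as that of the CBP effect between stages given above.

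**Figure D3:**
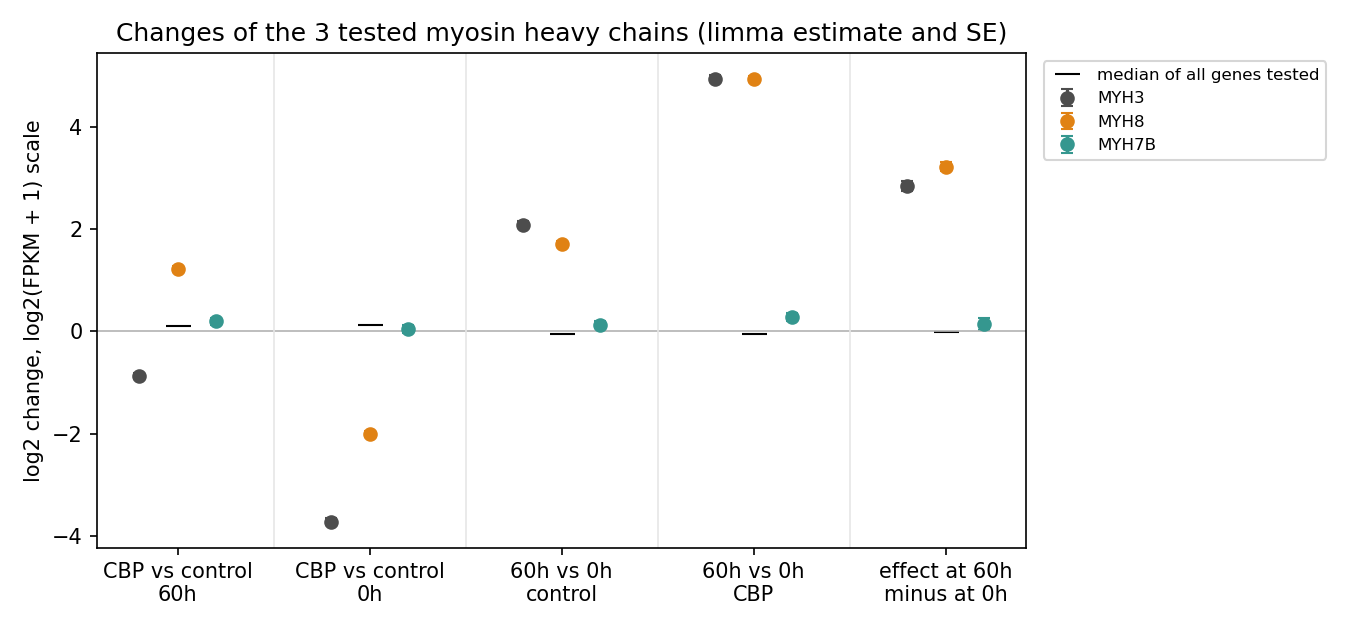
Log2 change (log2(FPKM + 1) scale) of MYH3, MYH8 and MYH7B in the 5 comparisons, with the SE of limma; the short black lines are the median of all 11636 genes tested. MYH3 and MYH8 differ in sign in CBP against control cells at 60h alone (-0.87 and 1.22), and lie close together in 60h against 0h of CBP cells (4.93 and 4.92).

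The makeup of the heavy chain transcripts differed between the arms at both stages. Of the summed FPKM of the 4 genes, MYH8 took 23.6% ± 0.119 in CBP cells and 6.66% ± 0.103 in control cells at 60h (SD, n = 3 each). At 0h it took 19.3% ± 1.98 in CBP cells and 8.18% ± 0.174 in control cells. MYH3 took 76.2% ± 0.13 in CBP cells and 93.1% ± 0.101 in control cells at 60h, and 75.9% ± 1.27 in CBP cells and 91.4% ± 0.226 in control cells at 0h. The shares of the arms did not overlap at either stage. The sum itself was 501 ± 35.7 FPKM in CBP cells and 748 ± 11.2 FPKM in control cells at 60h, and 15.2 ± 1.26 FPKM in CBP cells and 179 ± 11.2 FPKM in control cells at 0h. MYH7B took 4.57% of this sum in CBP cells at 0h and 0.357% in control cells at 0h, beside a MYH7B level that did not pass the test.

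The ratio of MYH8 to MYH3 FPKM was 0.311, 0.307 and 0.309 in CBP libraries at 60h, against 0.0721, 0.0723 and 0.0702 in control libraries at 60h. At 0h it was 0.256, 0.284 and 0.223 in CBP libraries, against 0.0919, 0.0887 and 0.0879 in control libraries. The geometric mean ratio was 4.32-fold higher in CBP cells at 60h and 2.83-fold higher in CBP cells at 0h. Between stages, the mean log2 ratio was 0.29 higher at 60h than at 0h in CBP cells and differed by -0.32 in control cells. The libraries of the groups compared did not overlap in any of these 4 comparisons, and the two-sided exact permutation p was 0.1 in each, raw and adjusted over the 4, which is the smallest p that 3 libraries against 3 allow.

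The genes most like each chain were taken as the 5 with the highest Pearson correlation of log2(FPKM + 1) over the 12 libraries, among 7872 named genes with a mean of 5 FPKM or more in a group. The points share 4 group means, so these values mostly compare the pattern of those means. For MYH3 they were TNNI1, the slow troponin I (r = 0.9997), CAV3, the muscle caveolin (0.999), ARPP21, CAP2 and the collagen chain COL1A2 (0.997). For MYH8 they were SVIL, the actin-binding supervillin (0.992), BTG1, DTX4, NRCAM and BTBD11 (0.990). For MYH7B they were TNRC6B (0.939), ENDOD1, IK, HOOK3 and SMG1 (0.930). MYH3 and MYH8 correlated with each other at r = 0.903 over the same 12 libraries.

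Each heavy chain binds an essential and a regulatory light chain. Of the 7 striated muscle light chains listed, 5 had a row and 4 were tested, of which 1 was called higher and 3 lower in CBP cells at 60h, and 4 lower at 0h. Over all genes, 44.7% were called higher and 27% lower at 60h, and 44.2% higher and 18.1% lower at 0h. Under median-of-ratios scaling these shares were 33.1% and 35.9% at 60h, and 25.7% and 26.5% at 0h. The list counts that follow were not recounted under that scaling, and are to be read with both sets of shares. MYL4, the essential light chain of embryonic muscle and atrium, was at 79.4, 80.1 and 86.0 FPKM in CBP libraries and 59.6, 63.5 and 64.3 FPKM in control libraries at 60h. At 0h MYL4 was at 1.93, 1.82 and 1.69 FPKM in CBP libraries and 8.02, 8.66 and 9.63 FPKM in control libraries. Its log2 change was 0.39 at 60h (limma adjusted p = 8.61e-05) and -1.79 at 0h (limma adjusted p = 2.75e-10), the signs of MYH8.

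The fast essential chain MYL1 was lower in CBP cells at both stages. It averaged 14.3 ± 0.301 FPKM in CBP cells and 59.7 ± 2.22 FPKM in control cells at 60h, 4.17-fold lower, and 1.92 ± 0.194 FPKM in CBP cells and 24.2 ± 0.768 FPKM in control cells at 0h, 12.6-fold lower (SD, n = 3 each). The fast regulatory chain MYLPF averaged 438 ± 12.8 FPKM in CBP cells and 738 ± 41.9 FPKM in control cells at 60h, and 62.0 ± 0.504 FPKM in CBP cells and 459 ± 12.2 FPKM in control cells at 0h. MYL2, the slow and ventricular regulatory chain, averaged 38.4 ± 2.39 FPKM in CBP cells and 297 ± 14.4 FPKM in control cells at 60h, 7.74-fold lower, and 75.4 ± 4.14 FPKM in CBP cells and 515 ± 14.1 FPKM in control cells at 0h, 6.83-fold lower. Among the 4 tested striated muscle light chains, MYL2 fell over differentiation in both arms, by 0.95 in CBP cells and by 0.79 in control cells on the log2 scale (limma adjusted p = 5.89e-09 and 5.07e-08), whereas MYL1, MYL4 and MYLPF rose. MYL3, the slow and ventricular essential chain, had between 0 and 9 reads in a library.

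Outside the chosen 8, 3 other striated muscle heavy chains and 3 non-muscle and smooth muscle heavy chains had a row. MYH13, the extraocular chain, averaged 1.12 ± 0.152 FPKM in CBP cells and 0.960 ± 0.208 FPKM in control cells at 60h, and 0.0157 ± 0.0102 FPKM in CBP cells and 0.204 ± 0.0869 FPKM in control cells at 0h. Its log2 change at 0h was -0.24 (limma adjusted p = 0.0374). That call was lost without CBP replicate 1 at 60h, without any 1 CBP library at 0h or without control replicate 1 or 2 at 0h (adjusted p between 0.051 and 0.139), and under quantile scaling (adjusted p = 0.224). MYH15 and MYH16 stayed below 1 FPKM in all groups. Of the non-muscle and smooth muscle chains, MYH9 (non-muscle IIA) and MYH11 (smooth muscle) were lower in CBP cells at both stages, with log2 changes of -0.58 and -1.23 at 60h and -0.16 and -1.43 at 0h. The MYH9 row was named by identifier, and its recovered length was 1606 bases, against 6772 bases for the MYH11 row. MYH14 (non-muscle IIC) was higher in CBP cells at 60h, at 11.5 ± 0.167 FPKM against 5.42 ± 0.0261 FPKM in control cells (limma adjusted p = 5.69e-10). At 0h MYH14 averaged 7.47 ± 0.277 FPKM in CBP cells and 6.48 ± 0.234 FPKM in control cells, a log2 change of 0.18 (limma adjusted p = 0.00158) that lost its call under median-of-ratios scaling (adjusted p = 0.225) and quantile scaling (adjusted p = 0.0529).

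Of the 20 listed proteins of myosin folding and the thick filament, 15 were tested. In CBP cells at 60h 3 were called higher and 10 lower, with a median log2 change of -0.70 beside 0.10 over all genes, and at 0h 2 were called higher and 10 lower, with a median of -1.52 beside 0.12. The largest changes at 60h were in MYOM1 (-2.31), MYOM3 (-2.20), TRIM54 (-2.13) and SMYD1 (-2.11). MYOM1 and MYOM3 are M-band proteins that link thick filaments, TRIM54 is a muscle ring finger protein, and SMYD1 is a muscle methyltransferase involved in myosin assembly. At 0h they were in MYOM1 (-3.18), SMYD1 (-2.66), MYOM3 (-2.57) and the myosin binding protein MYBPH (-2.31). These changes had a limma adjusted p of 1.47e-10 or less.

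Fast and slow isoforms of other sarcomeric proteins were mostly called lower in CBP cells. Of 11 fast isoforms 8 were tested, with 1 called higher and 7 lower at 60h and 6 lower at 0h. Their largest changes at 60h were in MYL1 (-1.99), TNNI2 (-1.63), TNNT3 (-1.45) and ACTN3 (-1.06), fast forms of light chain, troponin and alpha-actinin (limma adjusted p of 2.02e-06 or less). ACTN3 reached 1 FPKM in control cells at 60h alone, so a lower level in CBP cells at 60h was built into its being tested. The 7 fast isoforms called lower and their median change include ACTN3, and its call carries no weight there. Of 13 slow and cardiac isoforms 11 were tested, with 1 called higher and 10 lower at 60h, and 2 higher and 9 lower at 0h. Their largest changes at 60h were in MYL2 (-2.92), CSRP3 (-2.78), a muscle LIM protein, MYOZ2 (-1.63), a slow Z-disc protein, and TNNC1 (-0.88), the slow troponin C (limma adjusted p of 7.63e-10 or less). The median change was -0.90 for the fast and -0.73 for the slow list at 60h, beside 0.10 over all genes, and the lists share MYL1, MYLPF and MYL2 with the light chains.

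Between stages, 6 fast isoforms were called higher and 2 lower at 60h than at 0h in each arm. The shares over all genes were 31.3% higher and 41.5% lower in CBP cells, and 28.8% and 38% in control cells. The control count includes ACTN3, whose higher level at 60h was favoured by the filter. Of the slow and cardiac isoforms, 9 were higher and 2 lower at 60h in CBP cells, and 7 were higher and 2 lower in control cells. TNNT2 and TNNI1 had the largest slow and cardiac changes in both arms, at 5.65 and 3.91 in CBP cells and 2.78 and 1.66 in control cells on the log2 scale (limma adjusted p between 7.03e-15 and 1.40e-11). TNNI1, the gene most like MYH3 over the libraries, averaged 53.1 ± 2.68 FPKM in CBP cells and 88.7 ± 1.90 FPKM in control cells at 60h (SD, n = 3 each).

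Known regulators of heavy chain and fibre type were split at 60h and mostly lower at 0h. Of 21 listed, 18 were tested. Over all genes, 44.7% were called higher and 27% lower at 60h (33.1% and 35.9% under median-of-ratios scaling). At 0h these shares were 44.2% higher and 18.1% lower (25.7% and 26.5% under that scaling). Of the 18 regulators, 6 were called higher and 9 lower in CBP cells at 60h, and 0 higher and 15 lower at 0h. The largest changes at 60h were in MYF6 (-1.42) and MEF2C (-1.15), muscle transcription factors, in NFATC1 (-0.99), a calcineurin-dependent factor tied to slow fibres in mice, and in EYA1 (0.66), a transcriptional coactivator with phosphatase activity. At 0h they were in MYOG (-3.54), MYOD1 (-1.61), MEF2C (-1.53) and MYF6 (-1.14). All these changes had a limma adjusted p of 8.79e-07 or less. The effect at 60h minus that at 0h was called positive for 15 and negative for 2 of the 18, beside 24.3% positive and 26.7% negative of all genes.

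MicroRNAs that sit inside heavy chain genes gave no usable level in these libraries. MIR208A and MIR499 were listed at 0 in all 12 libraries, and the row of MIR208B held 0, 1 and 2 reads in CBP libraries at 60h and 0 reads in all others. MIR499 lies inside MYH7B, on chromosome 17 from 38374118 to 38374197 in the RefSeq annotation of Sscrofa11.1.

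The summed markers of myotubes, smooth muscle and fibroblasts were lower in CBP cells at both stages. Immune cell sums overlapped at both stages, and adipocyte sums were higher in CBP cells at 0h. Calls among all genes were 44.7% higher and 27% lower at 60h, and 44.2% higher and 18.1% lower at 0h. Under median-of-ratios scaling they were 33.1% and 35.9% at 60h, and 25.7% and 26.5% at 0h. All 6 tested myotube markers were called lower in CBP cells at 0h and 5 at 60h, and their summed level was 875 to 932 FPKM in CBP cells and 1120 to 1139 FPKM in control cells at 60h, and 84.3 to 91.3 FPKM in CBP cells and 695 to 743 FPKM in control cells at 0h. Of the 14 smooth muscle and pericyte markers, 11 were called lower and 1 higher at 60h and 14 lower at 0h, with a summed level of 3089 to 3273 FPKM in CBP cells and 4881 to 5029 FPKM in control cells at 60h. At 0h that sum was 1718 to 1785 FPKM in CBP cells and 4626 to 4730 FPKM in control cells. The 10 fibroblast markers summed to 4828 to 5182 FPKM in CBP cells and 6391 to 6700 FPKM in control cells at 60h, with 4 called higher and 4 lower, and to 1707 to 1735 FPKM in CBP cells and 2975 to 3099 FPKM in control cells at 0h, with 1 called higher and 7 lower. Their part in the heavy chain results was not tested. Of the 8 cardiac muscle markers with a row, 7 were below 1 FPKM in all groups, and their sum was 2.48 to 2.88 FPKM in CBP cells and 3.30 to 3.93 FPKM in control cells at 60h. The 5 immune cell markers summed to 3.642 to 3.804 FPKM in CBP cells and 3.18 to 4.34 FPKM in control cells at 60h, and to 6.13 to 7.68 FPKM in CBP cells and 5.69 to 6.15 FPKM in control cells at 0h. Of the 2 tested, CD68 was called higher (2.65 FPKM in CBP cells and 1.36 FPKM in control cells) and CD14 lower (0.928 FPKM in CBP cells and 2.31 FPKM in control cells) at 60h, and neither was called at 0h. The T cell marker CD3E was listed at 0 in every library.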

How the data were processed

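The authors deposited 1 table of FPKM values, 1 column per library. Libraries were made from total RNA with the VAHTS Universal V8 kit, per the labels' protocols, and the submitters' processing notes name Trimmomatic, featureCounts and the build Sscrofa11.1. For the aligner, annotation release and strand setting, nothing is given in the sources used here.

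FPKM steps gave whole reads for all 22521 genes above 0 (100%, tolerance 0.001), used for depth and for 1 added alternative. Genes with 1 FPKM or more in at least 3 of 12 libraries (11636) were fitted as log2(FPKM + 1) with limma 3.58.1 in R 4.3.3, as 4 group means with a trended spread. The fit was tested on simulated data. Tests were two-sided, with Benjamini-Hochberg adjustment within each of 5 comparisons and a threshold of 0.05. Log2 changes on this scale understate those of low genes, and folds are ratios of mean FPKM.

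All members were named, with the 5 genes most correlated with each that reached a group mean of 1 FPKM, all other myosin heavy and light chains, and up to 4 called genes with the largest change per described list and comparison. Members and lists were chosen with earlier results of these data known. Alternatives changed the pseudocount, filter, scaling, groups fitted and replicates. Symbols were deposited for 16801 genes, and 687 more were named by identifier.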

Additional observations from a re-analysis of the deposited data

Results flagged for a closer look

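For 10 of the tested myosin heavy chains, light chains and light chain kinases, the change of CBP against control cells differed between the stages by limma's interaction test, against a background of 50.9% of all genes. The others tested, MYH7B, MYH11, MYL2, MYL6 and MYL9, were not called in the main fit. MYH11 was called with a pseudocount of 0.1 (0.79, limma adjusted p = 0.000313) or 0.5, with TPM, and with limma-voom on reads (0.96, adjusted p = 7.40e-05). MYL2 was called under quantile scaling (-0.23, limma adjusted p = 0.0302), with the replicate block (adjusted p = 0.0174) and in some fits without 1 library. On the log2(FPKM + 1) scale, the change at 60h minus that at 0h was 3.22 for MYH8 (1.22 at 60h and -2.00 at 0h) and 2.84 for MYH3 (-0.87 at 60h and -3.71 at 0h). Among the light chains it was 2.18 for MYL4, 2.12 for MYLPF, 1.13 for MYL1 and 0.23 for MYL12A, a regulatory chain of non-muscle myosin. MYH14 had 0.79 and MYH13 0.36, and the MYH13 value was near the threshold (limma adjusted p = 0.0369) and lost its call in 10 of the alternatives (adjusted p up to 0.0959). The difference was negative for MYH9 (-0.42) and for MYLK, the smooth muscle light chain kinase (-0.30).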

How the results depend on the processing

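MYH3 and MYH8 kept their direction and call in 218 of 218 refits over the 5 comparisons. At 60h, CBP against control gave -1.003 to -0.82 for MYH3 and 1.09 to 1.28 for MYH8, and at 0h it gave -3.84 to -3.65 for MYH3 and -2.32 to -1.95 for MYH8. The MYH7B call at 60h was lost in 6 of 18 settings, among them a pseudocount of 0.1 (limma adjusted p = 0.0579) and median-of-ratios scaling (adjusted p = 0.127). Control cells at 60h against 0h had 4 of the chains called with limma-voom on recovered reads, an alternative chosen after seeing the data, against 2 as reported, because MYH7 entered the test and MYH7B passed. Median-of-ratios scaling moved the median of all genes by -0.11 at 60h and -0.12 at 0h in CBP against control cells, and TPM moved it by 0.10 between stages of CBP cells. Genes lower in CBP cells at 0h and higher at 60h, past 1 log2 unit each time, numbered 5 as reported and 9 with TPM. Same-numbered replicates did not deviate together (18 pairs, r between -0.0935 and 0.082). The fit with the replicate number as a block left MYH3 at -0.87 and MYH8 at 1.22 at 60h and called 2 chains there, with MYH7B at an adjusted p = 0.0503. Leaving out the MYH7B share moved the MYH3 share to 79.6% in CBP cells at 0h. For other named genes, 2690 refits kept direction and call, 23 lost the call, 9 gained it and 0 reversed. The interaction could not be fitted from only the groups compared. Depth limits MYH7 at 0h, with 5 to 7 reads in a CBP library and 19 to 25 in a control library.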

Other observations

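The light chains of non-muscle and smooth muscle myosin were lower in CBP cells at both stages and lower at 60h than at 0h in both arms. MYL9, the smooth muscle regulatory chain, averaged 147 ± 8.76 FPKM in CBP cells and 275 ± 7.72 FPKM in control cells at 60h, and 194 ± 11.4 FPKM in CBP cells and 365 ± 17.4 FPKM in control cells at 0h (SD, n = 3 each). MYL6, the essential chain shared by non-muscle and smooth muscle myosin, averaged 144 ± 5.21 FPKM in CBP cells and 203 ± 9.75 FPKM in control cells at 60h, and 243 ± 5.84 FPKM in CBP cells and 339 ± 9.90 FPKM in control cells at 0h. MYL12A fell over differentiation by 0.12 in CBP cells on the log2 scale (limma adjusted p = 0.00253), a call lost under median-of-ratios, TPM and quantile scaling (adjusted p between 0.209 and 0.836). MYLK, the kinase that phosphorylates these regulatory chains, was 2.01-fold lower in CBP cells at 60h and 1.61-fold lower at 0h (limma adjusted p = 4.93e-11 and 2.70e-09). The difference between stages was 0.01 for MYL9 and -0.01 for MYL6, with limma adjusted p = 0.886 and 0.865.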
